A study of Arabidopsis thaliana with 8 samples.

Results

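The comparison described here set Arabidopsis thaliana plants held for 24 h at 4 °C against warm control plants harvested before the cold. It rests on 4 of the 8 arrays of a time course, 2 of the 24 h group and 2 of the control, and on every probe set of the array other than its hybridisation and labelling controls. These were 22746 of 22810 probe sets, of which 14756 were bright enough to be tested. The plants of the 24 h group were Col-0, the standard laboratory accession, raised on soil at 22 °C and then moved to 4 °C for 24 h under continuous light of about 25 µmol per square metre per second. The control plants were Col-0 raised in the same way at 22 °C and sampled at 0 h of cold, with a growth light of 100 µmol per square metre per second. Seeds of both groups had 4 d of stratification and 10 d at 22 °C, and both groups are labelled as 18 d old; how these ages fit together is not given in the sources used here. RNA came from the above-ground parts of whole plants. Cold, dimmer light and a day of further growth came together in the 24 h group, and their effects cannot be told apart here. The labels do not say that replicates were separate cultures. The p-values therefore measure the spread between replicate samples of the whole time course, which may be technical.

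Plants of temperate climates become hardier after a day or more at low, non-freezing temperature, a process called cold acclimation. In Arabidopsis the CBF transcription factors are switched on within the first hours and bind the promoters of COR (cold-regulated) genes, whose protective proteins accumulate in cells and chloroplasts. Growth slows in the cold, membranes and soluble sugars are remodelled, and the photosynthetic apparatus has to balance light capture with slow enzymes.

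The 24 h arrays resembled each other (Pearson r = 0.974 across probe sets on the log2 scale) about as closely as the control arrays did (r = 0.973), while a 24 h and a control array correlated with r between 0.937 and 0.942. These correlations are across probe sets, which are not independent. Median signals were 34.3 and 32.8 on the 24 h arrays, against 37.7 on each control array. The ratio of 3' to 5' signal of the GAPDH control transcript, a check on RNA integrity, was 1.34 and 1.18 at 24 h and 1.24 and 1.26 in the control. For actin it was 1.15 and 1.37 at 24 h and 1.31 and 1.32 in the control. Ubiquitin gave higher ratios, 2.39 and 2.64 at 24 h and 2.88 and 2.22 in the control. The mesophyll marker RCA, rubisco activase, read 5464 and 5787 at 24 h and 5935 and 5056 in the control, so the labelled green tissue was present on all 4 arrays. The 3 root markers with a named probe set summed to no more than 40.6 on any of the 4 arrays, and none was bright enough to be tested. The pollen markers summed to 43.5 and 50.6 at 24 h and to 95.8 and 166 in the control; what part flowers or buds played in any result was not tested. In whole shoots, fewer cells of a type and less RNA per cell cannot be told apart.

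Signals were compared on a log2 scale after adding 6.07 units, which damps the changes of dim genes, and a probe set passed at a limma-adjusted p under 0.05. At 24 h, 1638 probe sets were higher than in the control (11.1% of those tested) and 2235 were lower (15.1%), while 10883 did not pass. The rises were fewer but longer-tailed than the falls: 163 probe sets rose at least 4-fold and 55 at least 8-fold, whereas 69 fell at least 4-fold and 4 at least 8-fold. The typical passing change was small on both sides, with a median log2 change of 0.93 among the risers and -0.85 among the fallers. The median of all tested probe sets was -0.10, and it moved to -0.01 when each array was centred on its median. That centring turned the balance of calls, with 2051 higher and 1714 lower, so that 54.5% of calls were rises against 42.3% as first scaled. Which direction was the more common is therefore not settled by these arrays. Calls also depended on single arrays: without replicate 2 of the 24 h group 896 probe sets were higher and 1052 lower, and without replicate 1 of that group 1006 were higher. Without replicate 1 of the control 1017 were higher and 1099 lower, and without its replicate 2 there were 1219 lower. A total of 740 rises (5.01% of tested probe sets) and 728 falls (4.93%) passed again whichever of the 8 arrays was left out. Every gene said below to have risen or fallen is among these, unless its arrays are given as an exception.

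**Figure D1:**
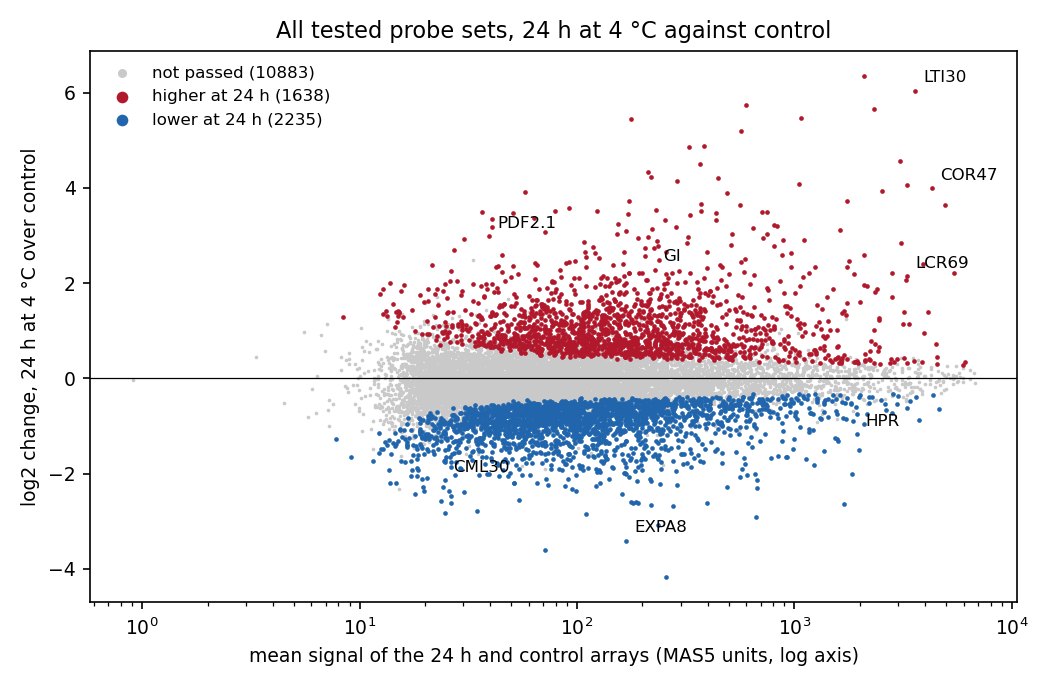
Each point is 1 of 14756 tested probe sets, with the mean signal of the 24 h and control arrays on a log horizontal axis and the log2 change of 24 h over control on the vertical axis. Red points (1638) were higher and blue points (2235) lower at 24 h, grey points did not pass, and the upward tail, led among labelled genes by LTI30 at 6.04, is longer than the downward one.

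The COR genes and other CBF targets moved together and by far. All 6 of the fixed list's 17 genes that had a named probe set rose, with a median log2 change of 3.96, beside a background of 11.1% of probe sets higher and a median of -0.10. LTI30, a dehydrin that coats membranes in drying and freezing cells, read 7291 and 6834 at 24 h, against 118 and 86.4 in the control. Its signal was 65.8-fold higher (log2 change 6.04 ± 0.31 SE, n = 2 arrays a group, limma-adjusted p 1.35e-05). No other gene with a symbol had a larger rise.

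COR47, an acidic dehydrin, read 8184 and 7912 at 24 h and 750 and 333 in the control, a 15.9-fold difference (log2 3.99 ± 0.38). COR15A, a small protein of the chloroplast stroma that protects membranes during freezing, read 6316 and 6125 at 24 h and 472 and 289 in the control (log2 4.05 ± 0.29). Its neighbour on chromosome 2, COR15B, encodes a closely similar protein, and read 4843 and 4654 at 24 h and 431 and 216 in the control (log2 3.93 ± 0.32). For each of these 4 genes the lower 24 h array lay many times above the higher control array, and the 24 h arrays were within 1.07-fold of each other. COR15A and COR15B are near copies, so their probe sets may partly read the same transcript.

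COR27, a cold-induced regulator of the circadian clock and of freezing tolerance, had 687 and 680 units at 24 h and 79.7 and 36.2 in the control, 11.5-fold higher (log2 3.52 ± 0.45, adjusted p 0.00102). The remaining gene of the list, AT4G33980, rose less, with 176 and 162 at 24 h and 33.8 and 19.2 in the control (log2 2.46 ± 0.43). Of the 2 groups compared, the control held the wider spread of these genes. The 1 h arrays lay apart as well, at 166 and 60.4 for COR27 and at 161 and 71.2 for LTI30. Replicate 1 of the control was above replicate 2 for all 6 genes, by 1.37- to 2.25-fold, while over all tested probe sets it was the higher array for 50.1%. Leaving out control replicate 1 gave a median log2 change of 4.41, and leaving out control replicate 2 gave 3.43; all 6 passed in both cases.

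Other protein families linked to drying and salt also held large rises. LEA4-5, a late embryogenesis abundant protein that stabilises other proteins when water is scarce, read 83.2 and 145 at 24 h, against 2.69 and 0.679 in the control (log2 3.92 ± 0.39). The control signals lay under the 40th percentile of their arrays, so the size of that rise depends on the added constant. Of the 4 tested LEA proteins and dehydrins outside the COR list, 2 rose, LEA4-5 and AT1G54410, which read 4492 and 4228 at 24 h and 2093 and 1861 in the control (log2 1.14 ± 0.13). The other 2 did not pass, beside 11.1% of all probe sets higher.

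Several genes first described from drought or salt treatment followed. RD2, a desiccation-responsive gene, read 1991 and 2155 at 24 h and 427 and 387 in the control, and was 5.04-fold higher (log2 2.33 ± 0.11, adjusted p 8.90e-06). SIS, a salt-induced serine-rich protein, read 120 and 59.4 at 24 h and 12.8 and 10.8 in the control (log2 2.35 ± 0.30). DI21, a drought-induced gene, read 278 and 426 at 24 h and 81.0 and 97.4 in the control (log2 1.88 ± 0.28). TIL, the temperature-induced lipocalin that guards membranes under heat and freezing, rose to 2919 and 3279 at 24 h, against 637 and 710 in the control, with a small error (log2 2.19 ± 0.11, adjusted p 1.35e-05). In none of these genes did a 24 h array overlap a control array, as the choice of named genes required. The 24 h arrays of SIS and of DI21 lay well apart from each other.

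PUB19, a U-box ubiquitin ligase that restrains drought and abscisic acid signalling, read 246 and 414 at 24 h and 18.8 and 18.3 in the control (log2 3.72 ± 0.27). It was the only one of 7 tested U-box, RING and F-box proteins to rise; 2 others were lower in the fit of all 8 arrays, and neither was without either control array or without 24 h replicate 1. The counts of this family stand beside 11.1% of all probe sets higher and 15.1% lower. ALDH7B4, an aldehyde dehydrogenase that detoxifies products of lipid peroxidation, rose by 0.88 on the log2 scale. GME, which makes GDP-L-galactose for ascorbate synthesis, read 960 and 972 at 24 h and 564 and 450 in the control (log2 0.93 ± 0.13).

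**Figure D2:**
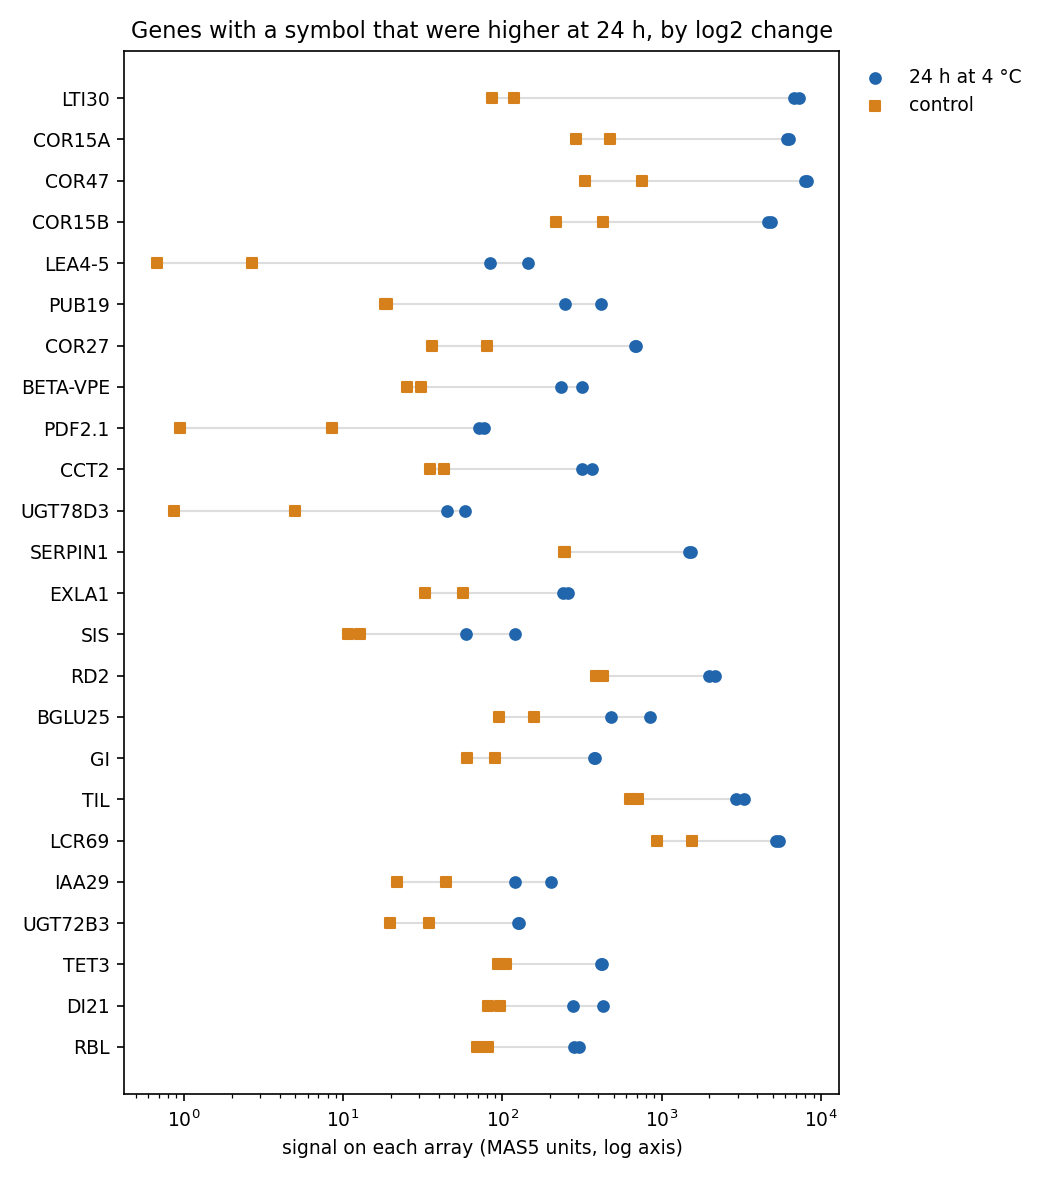
Signals on each array (MAS5 units, log axis) are drawn for the 24 genes with a symbol that had the largest rises among those passing whichever array was left out, blue circles for the 2 arrays of 24 h at 4 °C and orange squares for the 2 control arrays. In every row the 24 h circles lie to the right of both control squares, which was a condition for a gene to be drawn. In the COR genes the control squares lie farther apart than the circles.

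Of 2 tested vacuolar processing enzymes 1 rose, beside 11.1% of all probe sets higher. BETA-VPE, best known for cutting storage proteins in seeds, read 234 and 318 at 24 h and 31.1 and 25.2 in the control, 8.19-fold higher (log2 3.03 ± 0.27). GAMMA-VPE, the form typical of vegetative tissue, had a log2 change of 0.52 ± 0.23 and did not pass (adjusted p 0.135), although it did in the fit of the 24 h and control arrays alone (adjusted p 0.0425) and without replicate 1 or 2 of 7 d (0.0454 and 0.0451). The seed marker with a named probe set, OLEO3, an oil body protein, read 8.67 and 15.7 at 24 h and 20.1 and 12.9 in the control, too dim to be tested.

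SERPIN1, which inhibits cysteine proteases by trapping them, read 1484 and 1540 at 24 h and 249 and 244 in the control (log2 2.59 ± 0.12, adjusted p 7.38e-06). Replicates of this gene differed by a few percent while the groups differed several-fold. CYS1, a cystatin that also blocks cysteine proteases, rose less, with 1089 and 1101 at 24 h and 504 and 516 in the control (log2 1.09 ± 0.10).

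Plant defensins are small secreted peptides with antifungal activity. In the list of defensins, LCR peptides and thionins, 4 of 6 tested members were higher and none was lower, with a median of 1.00. Over all probe sets 11.1% were higher and 15.1% lower. Without control replicate 1 or without 24 h replicate 1 only 2 of the 6 were higher, and these 2 passed throughout. PDF2.1 read 76.5 and 71.8 at 24 h and 8.57 and 0.949 in the control (log2 2.98 ± 0.46). LCR69, a bright and related defensin, read 5202 and 5470 at 24 h and 1555 and 934 in the control (log2 2.14 ± 0.28). ChiC, a class V chitinase, read 64.9 and 74.4 at 24 h and 17.9 and 23.1 in the control (log2 1.51 ± 0.20).

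CCT2, the CTP:phosphocholine cytidylyl transferase that sets the pace of phosphatidylcholine synthesis, read 368 and 316 at 24 h and 43.2 and 35.2 in the control, and was 7.69-fold higher (log2 2.94 ± 0.19, adjusted p 4.32e-05). AAPT2, which catalyses the last step of that pathway, read 281 and 303 at 24 h and 150 and 148 in the control (log2 0.94 ± 0.15). Transcripts for the enzyme that makes CDP-choline and for the one that uses it were both higher, CCT2 by the larger factor. Enzyme levels were not measured, and other genes of the pathway are not given here.

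Among 11 tested sugar carriers of the SWEET, TMT and SFP families 4 were higher and 4 lower, beside 11.1% and 15.1% of all probe sets. The median of the 11 was -0.47. The 4 risers passed whichever array was left out. SWEET carriers let sugars pass through membranes down their gradient. SWEET13 read 104 and 126 at 24 h and 32.9 and 31.7 in the control (log2 1.65 ± 0.19). SWEET4 read 89.0 and 122 at 24 h and 34.5 and 30.9 in the control (log2 1.51 ± 0.20), and SWEET1 read 464 and 492 at 24 h and 160 and 167 in the control (log2 1.51 ± 0.12). TMT2, which pumps glucose and other monosaccharides into the vacuole, read 293 and 353 at 24 h and 113 and 116 in the control (log2 1.45 ± 0.21). The lower calls were less secure, because only 2 remained without any 1 of the 24 h and control arrays, and 1 of the 4, SFP1, a sugar-porter family protein (log2 -0.75), passed throughout. The 3 tested genes of starch breakdown and sucrose synthesis did not pass.

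The 2 tested genes of the circadian clock list both rose, beside 11.1% of all probe sets higher. GI, GIGANTEA, which couples the clock to flowering and to cold tolerance, read 380 and 379 at 24 h and 90.2 and 59.8 in the control (log2 2.28 ± 0.26, adjusted p 5.77e-04). AT5G52660 read 131 and 152 at 24 h and 59.9 and 71.3 in the control (log2 1.04 ± 0.16). Light was continuous in both groups, and the time of day of the harvests is not given in the sources used here.

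Of 11 tested subunits of the nuclear RNA polymerases 5 were higher and none was lower, beside 11.1% and 15.1% of all probe sets, while 6 did not pass; the median was 0.67, and without control replicate 1 or without either 24 h array 4 were higher. NRPA1 and NRPA2 are the subunits that form the active centre of RNA polymerase I, which makes ribosomal RNA. NRPA1 read 134 and 137 at 24 h and 71.0 and 60.8 in the control (log2 0.98 ± 0.16), and NRPA2 read 226 and 235 at 24 h and 120 and 116 in the control (log2 0.93 ± 0.15). NRPB7, of RNA polymerase II, read 130 and 154 at 24 h and 71.3 and 67.0 in the control (log2 0.97 ± 0.18).

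Some single genes of ribosomal RNA processing rose. YAO, a nucleolar WD-repeat protein needed in ribosomal RNA maturation, read 216 and 243 at 24 h and 70.3 and 70.8 in the control (log2 1.62 ± 0.19). PRH75, a nucleolar DEAD-box RNA helicase, read 896 and 919 at 24 h and 339 and 378 in the control (log2 1.33 ± 0.19). Of 3 tested RNA helicases 2 rose, PRH75 and AT3G09720, which read 126 and 91.6 at 24 h and 43.1 and 37.1 in the control (log2 1.30 ± 0.18). Smaller rises were seen for IMP4, a component of the particle that cuts pre-ribosomal RNA (log2 0.90 ± 0.14), and for DIM1A, which methylates ribosomal RNA (log2 0.75 ± 0.15). EIF4A-2, a helicase of translation initiation, read 1172 and 1179 at 24 h and 734 and 663 in the control (log2 0.75 ± 0.11). YAO, IMP4, DIM1A and EIF4A-2 belonged to no list and were picked after their values were seen. The 1 tested gene of the translation factor list did not pass (log2 -0.08). Beside the helicases, 11.1% of all probe sets were higher.

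Splicing factors and protein-folding helpers were less firm. Their counts stand beside 11.1% of all probe sets higher and 15.1% lower. In the list of splicing factors 4 of 11 were higher and none lower, but without control replicate 2 or 24 h replicate 2 only 1 was. That gene, AtRZ-1c, a glycine-rich RNA-binding protein that steers splicing, read 354 and 448 at 24 h and 199 and 213 in the control (log2 0.93 ± 0.16). Among co-chaperones of the Hop, Fes1 and Hsp70 classes 5 of 11 were higher and 1 lower, falling to 2 higher without any 1 of the 24 h and control arrays. Hop2, which hands clients between Hsp70 and Hsp90, passed throughout, with 330 and 398 at 24 h and 199 and 174 in the control (log2 0.94 ± 0.15). None of the 6 tested LSM proteins of RNA decay and splicing passed.

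In the mitochondrion, cox1, a subunit of cytochrome c oxidase encoded in the organelle, read 102 and 119 at 24 h and 41.7 and 29.8 in the control (log2 1.49 ± 0.21). It was the only one of 10 tested mitochondrion-encoded genes to rise, and 1 other was lower in the fit of all 8 arrays, though not without control replicate 2 or 24 h replicate 2. The mitochondrial gene nad1, read by its brightest probe set, did not pass (log2 -0.31). Its dimmer probe sets at log2 -1.24 and -1.44 were lower in the fit of all 8 arrays but did not pass throughout. Another, at -0.38, did not pass. SDH2-1, the iron-sulphur subunit of succinate dehydrogenase, encoded in the nucleus, read 582 and 592 at 24 h and 371 and 367 in the control (log2 0.66 ± 0.13). Among the 12 tested genes of the TCA cycle list, 3 were higher and 1 lower, beside 11.1% and 15.1% of all probe sets. Fewer of them passed without 24 h replicate 2.

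Cell wall genes split by family. Of 10 tested expansins 2 rose and 5 were lower, beside a background of 11.1% higher and 15.1% lower; 4 of the 5 passed without each array in turn. Expansins loosen the wall and let cells enlarge. EXPA8, an alpha-expansin, had the largest fall of any gene with a symbol: it read 34.7 and 13.8 at 24 h, against 412 and 214 in the control (log2 -3.41 ± 0.43, adjusted p 9.53e-04). Its replicates lay apart in both groups, but no 24 h array came near a control array.

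Both tested beta-expansins fell. EXPB1 read 16.4 and 14.6 at 24 h and 62.1 and 69.2 in the control (log2 -1.73 ± 0.25), and EXPB3 read 41.2 and 54.5 at 24 h and 123 and 149 in the control (log2 -1.40 ± 0.18). EXLB1, an expansin-like B protein, read 28.1 and 51.9 at 24 h and 107 and 142 in the control (log2 -1.54 ± 0.30). The expansin-like A genes went the other way. EXLA1 read 240 and 258 at 24 h and 56.7 and 32.7 in the control (log2 2.37 ± 0.24), and EXLA2 read 106 and 85.4 at 24 h and 28.5 and 21.2 in the control (log2 1.72 ± 0.30).

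Enzymes that build and trim wall polymers were mostly lower or unmoved. GH9B13, a membrane or secreted endoglucanase of the cellulase class, read 26.6 and 33.9 at 24 h and 159 and 143 in the control, 4.34-fold lower (log2 -2.12 ± 0.38), and was the only one of 6 tested GH9 enzymes to pass. CSLA03, a glucomannan synthase, read 16.7 and 10.1 at 24 h and 74.6 and 73.5 in the control (log2 -2.06 ± 0.20). CSLC04, which makes the glucan backbone of xyloglucan, read 137 and 79.7 at 24 h and 337 and 299 in the control (log2 -1.55 ± 0.22). None of 5 tested xyloglucan endotransglucosylases (XTH) passed. The GH9 and XTH counts stand beside 11.1% of all probe sets higher and 15.1% lower.

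The counts of TBL proteins and tubulins below stand beside 11.1% of all probe sets higher and 15.1% lower. TBL proteins add acetyl groups to wall polysaccharides. Of 14 tested, 6 were lower and none higher, with a median of -0.58, beside 15.1% of all probe sets lower, and 1 of the 6 passed throughout; without control replicate 2 only 1 was lower, and without control replicate 1 or either 24 h array 3 were. That gene, TBL26, read 43.8 and 45.1 at 24 h and 127 and 113 in the control (log2 -1.32 ± 0.19). SP1L3, a SPIRAL1-like microtubule protein of directional growth, read 162 and 141 at 24 h and 488 and 448 in the control (log2 -1.59 ± 0.13). Tubulins did not move with it: 2 of 7 were higher and none lower, of which TUB9, with 1265 and 925 at 24 h and 576 and 469 in the control (log2 1.05 ± 0.18), passed throughout; without control replicate 1 or 24 h replicate 2, 1 was higher.

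RALF peptides are secreted signals that alkalinise the wall and check cell expansion. In this family 5 of 6 tested members were lower and none higher, with a median of -0.94 against -0.10 over all probe sets; without either control array 3 were lower. Over all probe sets 15.1% were lower and 11.1% higher. RALFL33 read 125 and 96.2 at 24 h and 279 and 258 in the control (log2 -1.24 ± 0.16). RALFL31 read 24.4 and 22.9 at 24 h and 62.0 and 58.8 in the control (log2 -1.16 ± 0.17). RALFL34 read 336 and 293 at 24 h and 650 and 560 in the control (log2 -0.93 ± 0.16).

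THE1, THESEUS1, a receptor kinase that monitors the wall and has been described as a receptor of RALF34, read 63.1 and 46.7 at 24 h and 102 and 125 in the control (log2 -0.98 ± 0.18). PSY1R, a receptor kinase linked to a sulphated growth peptide, read 24.5 and 23.1 at 24 h and 63.2 and 57.3 in the control (log2 -1.15 ± 0.20). THE1 and PSY1R belonged to no list and were picked after their values were seen. Tetraspanins, small membrane proteins that gather others into domains, divided evenly. TET3 rose, with 418 and 423 at 24 h and 106 and 94.5 in the control (log2 2.01 ± 0.13), as did TET2 (log2 1.09 ± 0.17). TET10 fell, with 21.9 and 18.4 at 24 h and 105 and 98.2 in the control (log2 -2.04 ± 0.19), as did TET7 (log2 -1.14 ± 0.17). The 2 further tetraspanins tested did not pass. The tetraspanin counts stand beside 11.1% of all probe sets higher and 15.1% lower.

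**Figure D3:**
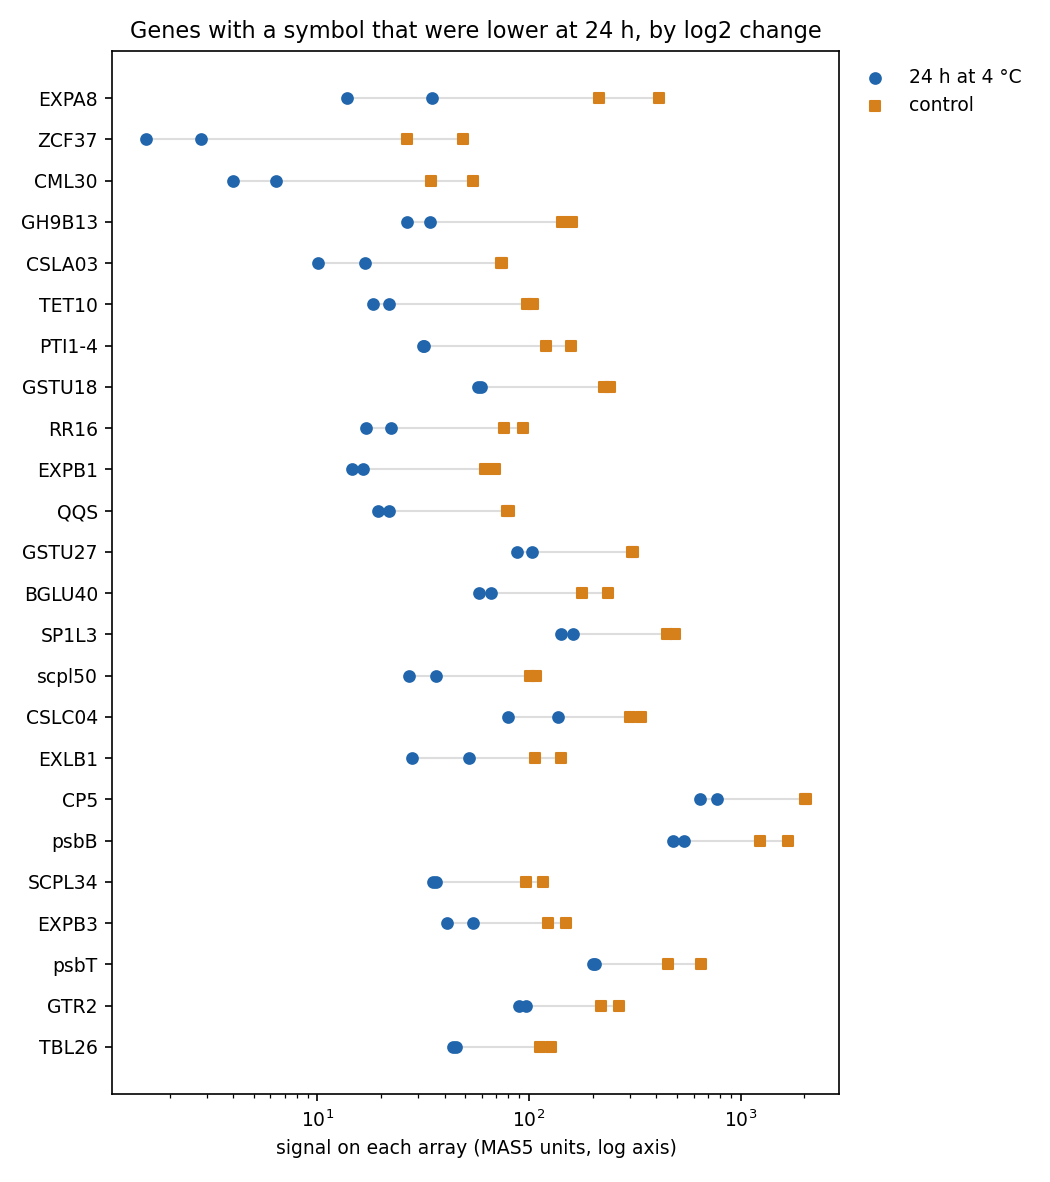
Signals on each array (MAS5 units, log axis) are drawn for the 24 genes with a symbol that had the largest falls among those passing whichever array was left out, blue circles for the 2 arrays of 24 h at 4 °C and orange squares for the 2 control arrays. The 24 h circles lie to the left of both control squares in every row, which was a condition for a gene to be drawn. EXPA8, with 34.7 and 13.8 at 24 h and 412 and 214 in the control, has the largest fall.

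Of 69 tested plastid-encoded genes 20 were lower, 1 was higher and 48 did not pass, beside 15.1% of all probe sets lower and 11.1% higher, and the median log2 change of all 69 was -0.49; without control replicate 2 or 24 h replicate 2, 10 were lower, and the 1 higher call was lost without any 1 of the 24 h and control arrays. Those that passed throughout numbered 7, all falls, beside 4.93% of all probe sets. psbB, which encodes the CP47 core antenna of photosystem II, read 539 and 480 at 24 h and 1684 and 1235 in the control (log2 -1.49 ± 0.21). psbT, a small photosystem II subunit encoded next to it, read 205 and 201 at 24 h and 648 and 454 in the control (log2 -1.39 ± 0.18). These genes share a transcription unit in the plastid, so their values are not independent.

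Of the genes for the plastid's own RNA polymerase, rpoB (log2 -1.03) and rpoC1 (log2 -0.90) were lower as well. Of 19 tested plastid-encoded polymerase and ribosomal protein genes 6 were lower and 13 did not pass. Falls were also seen in ycf3, a factor of photosystem I assembly (log2 -1.17), rps2, a ribosomal protein (log2 -0.80), and cemA, an envelope protein (log2 -0.76). In the nuclear list of photosystem and NDH assembly and regulation 7 of 19 were lower and none higher; 2 were without control replicate 1, and 3 without either 24 h array. Beside them, 15.1% of all probe sets were lower and 11.1% higher. LPA2, which helps assemble photosystem II, read 166 and 136 at 24 h and 304 and 331 in the control (log2 -1.05 ± 0.16). CaS, a calcium-sensing protein of the thylakoid, read 682 and 648 at 24 h and 1072 and 1261 in the control (log2 -0.80 ± 0.12).

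Of 5 tested nuclear photosystem and light-harvesting genes 2 fell, both antenna proteins of the same type, beside 15.1% of all probe sets lower. After quantile normalization all 5 were lower. LHCB4.2 read 2384 and 1882 at 24 h and 3536 and 3482 in the control (log2 -0.73 ± 0.13). LHCB4.3 read 505 and 447 at 24 h and 756 and 767 in the control (log2 -0.67 ± 0.12). As close relatives they may share hybridisation.

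Among 8 tested genes of tetrapyrrole synthesis 3 were lower, none was higher and 5 did not pass, beside 15.1% of all probe sets lower; 2 were lower without control replicate 1 or either 24 h array. HEME1, uroporphyrinogen decarboxylase, read 323 and 290 at 24 h and 567 and 579 in the control (log2 -0.89 ± 0.12). CHLM, the methyltransferase of the magnesium branch towards chlorophyll, read 990 and 799 at 24 h and 1395 and 1573 in the control (log2 -0.73 ± 0.13).

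Of 7 tested genes of the Calvin cycle and photorespiration 2 were lower, none was higher and 5 did not pass; 1 was lower without control replicate 1, without either 24 h array or with median centring, and 4 were after quantile normalization. Over all probe sets 15.1% were lower and 11.1% higher. HPR, the peroxisomal hydroxypyruvate reductase of photorespiration, read 1287 and 1092 at 24 h and 3018 and 2358 in the control, 2.24-fold lower (log2 -1.17 ± 0.14). The Calvin cycle enzymes themselves gave little: SBPASE, sedoheptulose bisphosphatase, had a log2 change of -0.27 (adjusted p 0.14), and PRK, phosphoribulokinase, -0.31 (adjusted p 0.125). After quantile normalization both passed as lower (adjusted p 0.0114 for SBPASE and 0.0205 for PRK), and SBPASE also did without control replicate 2 (adjusted p 0.0389). TRXF2, a thioredoxin that switches such enzymes on in the light, read 180 and 154 at 24 h and 309 and 400 in the control (log2 -1.05 ± 0.18). TRXF2 belonged to no list and was picked after its values were seen.

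Secondary metabolism changed gene by gene. Of 22 tested UDP-glycosyltransferases 3 rose and 5 were lower, with a median of 0.01; these counts are near the 11.1% higher and 15.1% lower of all probe sets. The 3 rises passed throughout, whereas without either control array or without 24 h replicate 1 only 1 was lower, and with each array centred on its median 5 were higher and 2 lower, and after quantile normalization 3 were lower. UGT78D3, a flavonol arabinosyltransferase, read 58.3 and 44.7 at 24 h and 5.02 and 0.869 in the control (log2 2.70 ± 0.45). UGT72B3 read 128 and 126 at 24 h and 19.8 and 34.6 in the control (log2 2.04 ± 0.22). UGT78D2, which glucosylates flavonols and anthocyanins, read 303 and 394 at 24 h and 111 and 166 in the control (log2 1.31 ± 0.23).

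UGT78D2 was also the only one of 7 tested flavonoid and anthocyanin genes to pass throughout; 2 of them were higher and 1 lower, against 1 higher without control replicate 1 or either 24 h array, and none lower without control replicate 2 or either 24 h array. UGT84A3, a hydroxycinnamate glucosyltransferase that the list's search term did not find, read 185 and 217 at 24 h and 61.0 and 54.4 in the control (log2 1.70 ± 0.28). GT72B1, a glucosyltransferase of phenolic compounds that the same term missed, fell, with 122 and 158 at 24 h and 294 and 281 in the control (log2 -1.02 ± 0.16). Beta-glucosidases that can remove such sugars went both ways, beside 11.1% of all probe sets higher and 15.1% lower. Of 9 tested, BGLU25 rose, with 484 and 842 at 24 h and 95.3 and 158 in the control (log2 2.32 ± 0.37), while BGLU40 read 65.9 and 58.0 at 24 h and 179 and 236 in the control (log2 -1.64 ± 0.20) and BGLU16 fell by 0.94.

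Tau-class glutathione transferases detoxify reactive compounds. GSTU18 read 59.6 and 57.5 at 24 h and 226 and 242 in the control (log2 -1.89 ± 0.17), and GSTU27 read 87.6 and 103 at 24 h and 310 and 308 in the control (log2 -1.65 ± 0.21). These were the 2 falls among 5 tested tau-class genes; 1 other was higher, but not without either control array or without 24 h replicate 2. GTR2, a plasma membrane importer of glucosinolates, read 90.1 and 97.0 at 24 h and 220 and 266 in the control (log2 -1.32 ± 0.16). Serine carboxypeptidase-like proteins, some of which act as acyltransferases, had 5 lower and 1 higher of 14 tested, beside 15.1% and 11.1% of all probe sets; 3 were lower without control replicate 1 or either 24 h array. scpl50 read 36.2 and 27.2 at 24 h and 108 and 101 in the control (log2 -1.56 ± 0.25), and SCPL34 read 35.2 and 36.3 at 24 h and 117 and 97.2 in the control (log2 -1.43 ± 0.19). None of 12 tested cytochrome P450s passed throughout, although 3 were lower in the fit of all 8 arrays; 1 was without control replicate 1 or either 24 h array, and without control replicate 2 none was lower and 1 was higher.

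Hormone and calcium signalling genes were few in the annotation. IAA29, a repressor of auxin responses, read 203 and 120 at 24 h and 44.4 and 21.8 in the control (log2 2.11 ± 0.40). RR16, a type-A response regulator that dampens cytokinin signalling, read 17.0 and 22.2 at 24 h and 94.1 and 76.2 in the control (log2 -1.83 ± 0.35). RTE1, which acts with the ethylene receptor ETR1, read 25.5 and 18.5 at 24 h and 66.2 and 55.4 in the control (log2 -1.26 ± 0.19). The 3 belonged to different pathways and moved in both directions.

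Calmodulin-like proteins read calcium signals, and 2 of 6 tested fell while none rose, beside 15.1% of all probe sets lower and 11.1% higher. CML30 read 6.40 and 3.99 at 24 h and 54.2 and 34.5 in the control (log2 -2.14 ± 0.27). CML42, known from trichome branching and herbivore defence, read 60.7 and 45.1 at 24 h and 114 and 137 in the control (log2 -1.16 ± 0.20). PTI1-4, a cytosolic protein kinase, read 31.7 and 32.0 at 24 h and 121 and 158 in the control (log2 -1.93 ± 0.19). ILR3, a bHLH factor of iron homeostasis, read 220 and 183 at 24 h and 414 and 375 in the control (log2 -0.95).

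Single genes without a list completed the named set, and like RD2, SIS, DI21, TIL, SERPIN1, CYS1, CCT2 and AAPT2 they were picked after their values were seen. QQS, an orphan gene that regulates starch content, read 19.4 and 21.7 at 24 h and 80.9 and 79.1 in the control (log2 -1.69 ± 0.31). ZCF37 read 2.83 and 1.54 at 24 h and 26.4 and 48.9 in the control (log2 -2.36 ± 0.34), a fall to signals below most of the array. RBL (REBELOTE, AT3G55510), known from floral meristem arrest, read 303 and 281 at 24 h and 68.9 and 81.2 in the control (log2 1.88 ± 0.18). SAT32, named for salt tolerance, read 304 and 341 at 24 h and 93.1 and 109 in the control (log2 1.62 ± 0.16).

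The annotation gave no gene for 768 of the 1638 rises and 966 of the 2235 falls, among them the largest rise (log2 6.35) and the largest fall (log2 -4.18), which are unnamed here. Of the genes it did give, many carried only a locus tag, and these have no name or role here. Among the 20 largest rises that passed throughout and named 1 gene, 13 had only a tag, as did 16 of the 20 largest falls. AT1G16850 read 1058 and 1295 at 24 h and 21.6 and 11.8 in the control (log2 5.73 ± 0.29); the control signals were under the 40th percentile, so the added constant bears on that size. AT1G51090 read 1076 and 1154 at 24 h and 32.0 and 18.5 in the control (log2 5.20 ± 0.29). AT1G68500 read 775 and 642 at 24 h and 25.0 and 25.9 in the control (log2 4.50 ± 0.19).

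The tightest rise of the 20 was that of AT1G73480, with 1252 and 1372 at 24 h and 107 and 113 in the control (log2 3.50 ± 0.13, adjusted p 3.07e-06). The loosest by standard error was AT4G01870, whose 24 h arrays read 697 and 1403, against 62.1 and 88.5 in the control (log2 3.63 ± 0.55, adjusted p 0.00225). That error pools the replicate spread of every time in the series, not of the compared groups alone. The 7 d arrays of AT4G01870 read 193 and 756, farther apart on the log2 scale than its 24 h arrays. On the falling side AT1G13650 read 3.31 and 7.23 at 24 h and 88.4 and 187 in the control (log2 -3.60 ± 0.42), and here too the 24 h signals were dim enough for the constant to bear on the size. AT2G34620 read 54.2 and 36.9 at 24 h and 403 and 448 in the control (log2 -3.08 ± 0.17). AT1G51400 was a bright gene in the control and fell far: it read 539 and 400 at 24 h and 2753 and 3097 in the control (log2 -2.64 ± 0.15, adjusted p 2.00e-05).

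The level at 24 h was then set against the other times in the cold, for the 40 genes just described as the 20 largest rises and 20 largest falls. These genes were chosen on their 24 h arrays, which enter each of these comparisons too, so the counts describe the genes and support nothing further. Against 1 h at 4 °C all 20 rises were higher at 24 h, by 1.37 to 5.96 on the log2 scale, and all 20 falls were lower, by -1.51 to -3.29; over all tested probe sets 11.6% were higher and 14.9% lower than at 1 h. Against 7 d at 4 °C 10 of the rises were higher at 24 h, 10 did not pass and none was lower, beside 4.22% of probe sets higher. Of the falls, 8 were lower at 24 h than at 7 d and 12 did not pass, beside 4.32% of probe sets lower. The total of 18 passing against 7 d depended on single arrays: it was 6 without 24 h replicate 2, 11 without 24 h replicate 1, 11 without replicate 1 of 7 d and 9 without replicate 2 of 7 d.

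Genes differed in how 24 h stood among the times. AT1G48100 was highest at 24 h, with means of 40.3 ± 1.56 (SD, n = 2) in the control, 45.3 ± 7.28 at 1 h, 854 ± 105 at 24 h and 137 ± 28.4 at 7 d. AT1G51090 was of the same kind, at 79.5 ± 33.8 at 1 h, 1115 ± 55.1 at 24 h and 145 ± 28.6 at 7 d. AT1G80130 instead read 807 ± 41.8 at 24 h and 948 ± 183 at 7 d, which did not differ beyond their spread.

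LTI30 averaged 7063 ± 323 at 24 h and 3451 ± 528 at 7 d, a log2 difference of 1.04 that did not pass (adjusted p 0.0726). COR47 averaged 8048 ± 192 at 24 h and 2864 ± 627 at 7 d (log2 1.51, adjusted p 0.0453), a call that was lost without either 24 h array or either 7 d array, with adjusted p between 0.0745 and 0.177. SERPIN1 was higher at 24 h than at 7 d by a log2 difference of 1.49 (adjusted p 7.95e-04). GI averaged 380 at 24 h and 473 at 7 d, a log2 difference of -0.29 that did not pass (adjusted p 0.504).

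PUB19 was already high at 1 h, with means of 18.6 ± 0.292 in the control, 123 ± 43.5 at 1 h and 330 ± 118 at 24 h. EXLA1 showed no detectable difference between 24 h and 1 h (log2 0.05, adjusted p 0.901), and it stood above its 7 d level by 2.77 on the log2 scale (adjusted p 0.00117). QQS at 24 h likewise differed from its 1 h level by -0.06 (adjusted p 0.902). SWEET13 was lower at 24 h than at 7 d, by -1.16 on the log2 scale (adjusted p 0.0127), but the adjusted p was 0.0792 without 24 h replicate 1, 0.0518 without 24 h replicate 2 and 0.0521 without replicate 2 of 7 d. LHCB4.3, lower at 24 h than in the control, averaged 108 at 7 d.

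**Figure D4:**
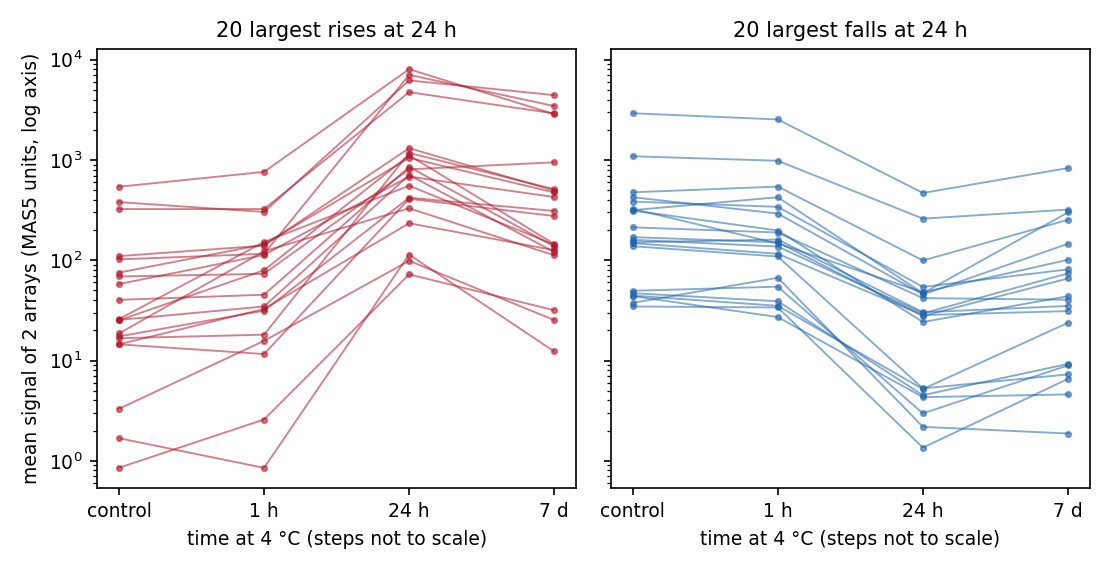
Mean signals of 2 arrays (MAS5 units, log axis) are joined across control, 1 h, 24 h and 7 d for the genes with the 20 largest rises (left, red) and the 20 largest falls (right, blue) at 24 h. Lines of most falls are nearly level between control and 1 h. Several rises already have higher means at 1 h, among them PUB19 and AT1G11210 (25.9 in the control and 152 at 1 h). Between 24 h and 7 d, 10 of the rises and 12 of the falls did not pass.

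Genes can also be sorted by whether their signal crossed the lower part of the array. A total of 122 probe sets that passed lay under the 40th percentile of both control arrays and above it on both 24 h arrays, and 171 went the other way; 66 of the first and 107 of the second named 1 gene. LEA4-5, PUB19, PDF2.1 and UGT78D3 crossed upward, and ZCF37 and CML30 dropped below. Deposited values alone do not say whether such dim signals differ from background.

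Where a gene had several probe sets, these could be compared as repeated readings of its transcripts. Of 90 such genes 32 had at least 1 probe set that passed, 11 had all of them passing in the same direction, and none had probe sets passing in opposite directions. The probe sets of AT1G10090 gave log2 changes of 1.68 ± 0.18 and 1.40 ± 0.26, and both passed throughout. Those of AT2G20050 gave 1.06 ± 0.19, which passed throughout, and 0.45 ± 0.22, which did not pass (adjusted p 0.161).

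Adjacent genes were also compared, without a test of whether they moved together more or less often than other pairs of genes. Among 2540 pairs of neighbouring tested genes, 8 pairs had both members at least 2-fold higher, 7 had both at least 2-fold lower and 12 had opposite changes of that size; 382 of 7936 genes were at least 2-fold higher and 425 at least 2-fold lower. COR15B and COR15A were 1 of the higher pairs. The longest run held 3 genes on chromosome 3, of which AT3G57000 (log2 1.10 ± 0.17) and AT3G57020 (log2 1.88 ± 0.33) passed throughout; AT3G57010 between them, at 1.76 ± 0.37 in the fit of all 8 arrays, did not (log2 1.27, adjusted p 0.0814 without 24 h replicate 2).

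Among others, these families gave no member that passed in either direction at 24 h. They were the 7 tested glutamate receptor-like channels, the 6 LSM proteins, the 5 XTH enzymes, the 4 peroxidases, the 3 genes of starch and sucrose metabolism and the 3 of the stomatal lineage. With 2 arrays a group small changes can be missed, so these genes are not shown to have been steady. In the CBF and cold transcription factor list, 2 of 25 genes had a named, tested probe set and neither passed; the CBF genes themselves were not analysed here.

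**Figure D5:**
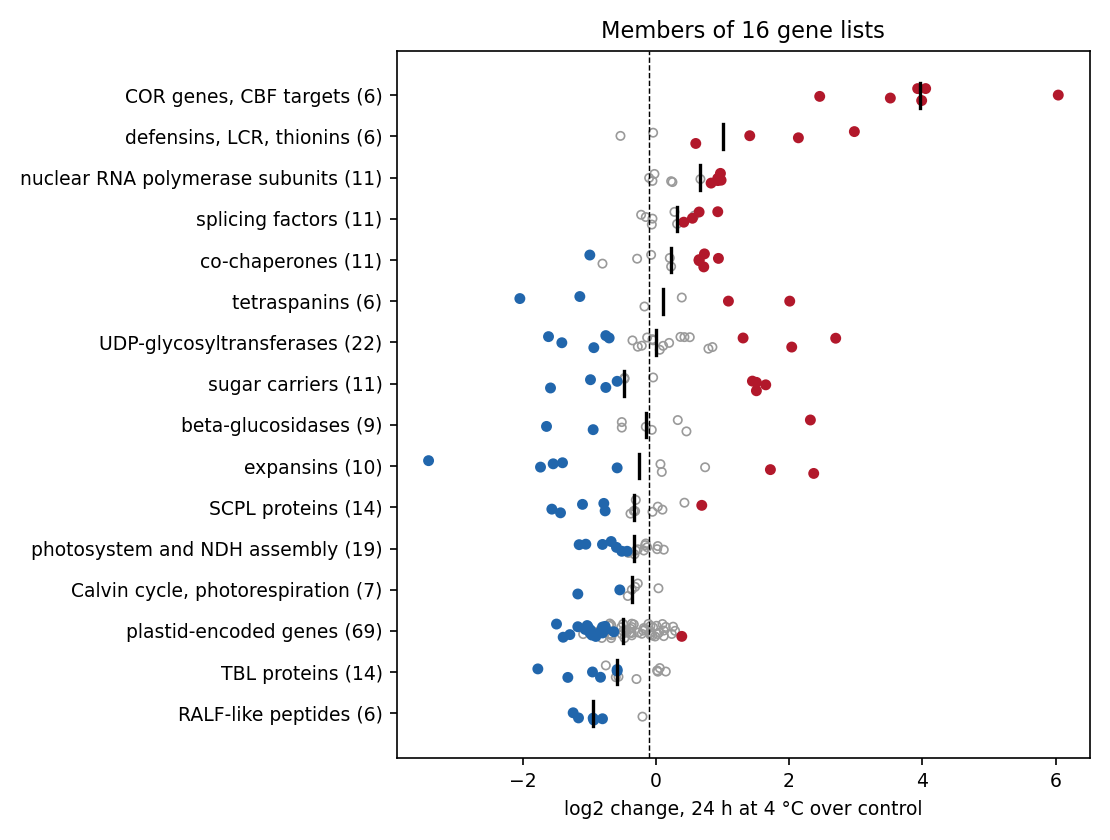
Each point is 1 tested gene, placed by its log2 change of 24 h over control (horizontal axis), in rows by gene list with the number tested in brackets. Red points were higher and blue points lower at 24 h, open points did not pass, black bars are list medians and the dashed line is the median of all tested probe sets (-0.10); the COR list's median of 3.96 lies farthest to the right, and the RALF peptides, at -0.94, lie among the lowest.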

How the data were processed

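The authors deposited 1 linear signal intensity per probe set and array, made with MAS5, per the submitters' processing notes; no version of it is given in the sources used here. On every array the mean signal after trimming 2% of probe sets at each end was 100.01, and no further scaling was applied. Scan dates were not used here.

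The test took the 14756 probe sets that reached the 40th percentile of 2 or more arrays. log2(signal + 6.07), where 6.07 is the table's 20th percentile, was fitted in limma 3.58.1 (R 4.3.3) as a mean per time over the 8 arrays (eBayes with a variance trend, 4 residual degrees of freedom), two-sided, with Benjamini-Hochberg adjustment over all probe sets at 0.05. Errors are standard errors of log2 changes. The test was checked on simulated data.

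Of the probe sets other than controls, 13513 named 1 gene, 503 several and 8730 none; 13484 matched RefSeq's table for TAIR10.1, used for names and gene order alone. The brightest probe set stood for a gene. Named genes were the 20 largest changes each way, and up to 4 members of each list, that passed in the fit of all arrays and without each array in turn, with groups that did not overlap; others are named for their role, with their values. The comparison, lists and genes were chosen with earlier results of these data known. Sequences were not used here. The number of arrays, 2 a group, limits the precision; the median standard error was 0.19.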

Additional observations from a re-analysis of the deposited data

How the results depend on the processing

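Of 117 genes with a tested change named in the text, 114 passed with all 8 arrays. Where still tested, each of these also passed with a pseudocount of 3.03 or 24.3, no filter or a filter at the 60th percentile. The same held for median centring, quantile normalization, no variance trend, the 24 h and control arrays alone and the replicate number as a block. Passing without each array in turn was a condition for naming most of these genes, so those fits lend them no further support. The exceptions are given with their values in the report. With any 1 array left out, the probe sets higher at 24 h numbered 896 to 1646 and those lower 1052 to 2329, and the count of 40 genes passing against 7 d ran from 6 to 19; fewer arrays leave fewer degrees of freedom. Outside the leave-outs, higher calls ranged from 1388 (no filter) to 2051 (median centring) and lower calls from 1714 (median centring) to 2230 (pseudocount 3.03), apart from the paired fit. A fit with the replicate number as a block gave 2028 higher and 2951 lower, and moved the lower counts to 5 of 8 for tetrapyrrole synthesis and 4 of 7 for the Calvin cycle list, and the higher count to 5 of 22 for UDP-glycosyltransferases. Deviations of replicate 1 from the group means correlated between 24 h and control with r = 0.164 across probe sets, and with r from 0.164 to 0.363 over the 6 pairs of times; with 2 numbers this does not show that the numbers pair the samples. Genes under 52.3 units in mean signal had a median standard error of 0.26, against 0.15 in the brightest part, so changes of dim genes are the least certain.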
